A study of Homo sapiens with 28 samples.

Results

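Lysosome genes were followed through treatment of 7 leukaemia cell lines with a DNMT1 inhibitor. The set held 45 named genes of the lysosome's membrane, its glycan, lipid and protein hydrolases, its proton pump, the lysosomal growth factor precursor gene GRN and the transcription factor gene TFEB. Of these, 42 had a probe set, among 11676 genes in all, and GLB1, ARSA and LGMN were not analysed here. Each gene was read from its brightest probe set over all arrays, a choice made without regard to treatment. The study exposed the established acute myeloid leukaemia (AML) lines GDM1, MOLM13, NOMO1, SHI1, SKM1, SKNO1 and THP1 to 1 µM GSK3484862, or to 0.1% DMSO as vehicle, for 96 hours (4 days). GSK3484862 inhibits DNMT1, the enzyme that copies DNA methylation to the new strand after replication. Biological duplicates of each line and treatment gave 14 groups of 2 arrays, 28 Affymetrix Human Genome U133 Plus 2.0 arrays in total. Every line is a single leukaemia grown in culture, and the labels name no allele or other agent.

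Lysosomes are acidic organelles in which hydrolases break down glycans, lipids and proteins delivered by endocytosis, phagocytosis and autophagy. A V-type ATPase in the membrane pumps protons in, and most of the hydrolases need the acid. Many lysosome genes share a promoter element built on the E-box CACGTG, which TFEB and its relatives bind, and monocytes and macrophages are rich in lysosomes.

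The deposited values are log2 probe set signals. They ran from a common floor of 2.13 to 16.8, and the medians of the arrays lay between 8.33 and 8.51. Flat signals also occurred above that floor, as CTSL gave 4.57 on all GDM1 arrays. Distance from 2.13 therefore does not mark every signal that could not show a change. Across genes, which are no independent replicates, the duplicates of a group had r = 0.990 to 0.998. A single array had an SD of 0.161 to 0.305, with treated SKM1 the widest, and precision is limited by how few arrays there were. The lines carried blood cell markers, with DMSO means of 11.23 to 12.96 for the leukocyte gene PTPRC and 8.89 to 10.15 for the myeloid factor gene SPI1. Other myeloid genes varied more. The granulocyte enzyme gene MPO spanned 6.94 to 15.48 over the lines, ELANE 2.20 to 15.42 and AZU1 2.82 to 15.42. The receptor genes FLT3 and KIT spanned 2.73 to 12.30 and 3.14 to 13.09, so some lines had low signals of these genes. The T cell gene CD3D reached 14.59 in the line where it was highest. A level is comparable only for 1 gene between arrays, since each probe set has its own response. In RNA from a whole culture, fewer cells of a type and less RNA per cell cannot be told apart. A change is the log2 signal with GSK3484862 minus that with DMSO, given with its standard error (SE) from limma, and a gene is said to rise or fall only at a Benjamini-Hochberg adjusted p under 0.05 over all 11676 genes.

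Over the 7 lines together, more lysosome genes rose than fell. On average 27 of 42 rose (64.3%), beside 23.2% of all genes, and only GAA fell (2.38%), beside 28.6% of all genes. The other 14 did not pass. The median average change was 0.22 for the lysosome genes and -0.02 for all genes. The rises were small, the largest being FUCA1 at 1.73-fold. In 9 genes that rose on average the change was above 0 in all 7 lines, beside 5.99% of all genes, namely LAPTM5, IDS, MAN2B1, NEU1, FUCA1, PSAP, ASAH1, CTSB and CTSD. GAA fell on average with a change below 0 in all 7 lines, beside 10.4% of all genes. With the 7 lines as the units of the test, 4 genes rose, namely NEU1, FUCA1, ASAH1 and CTSD, beside 2.54% of all genes, and 0 fell, beside 4.53%. Of the 28 genes called on average (beside 51.7% of all genes), 22 were kept whichever line was left out. Without MOLM13 the number that rose was 22, beside 19.8% of all genes, and without GDM1 24, beside 20.9%. Without any other single line it was 25 to 28, beside 21.4% to 23.4% of all genes.

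**Figure D1:**
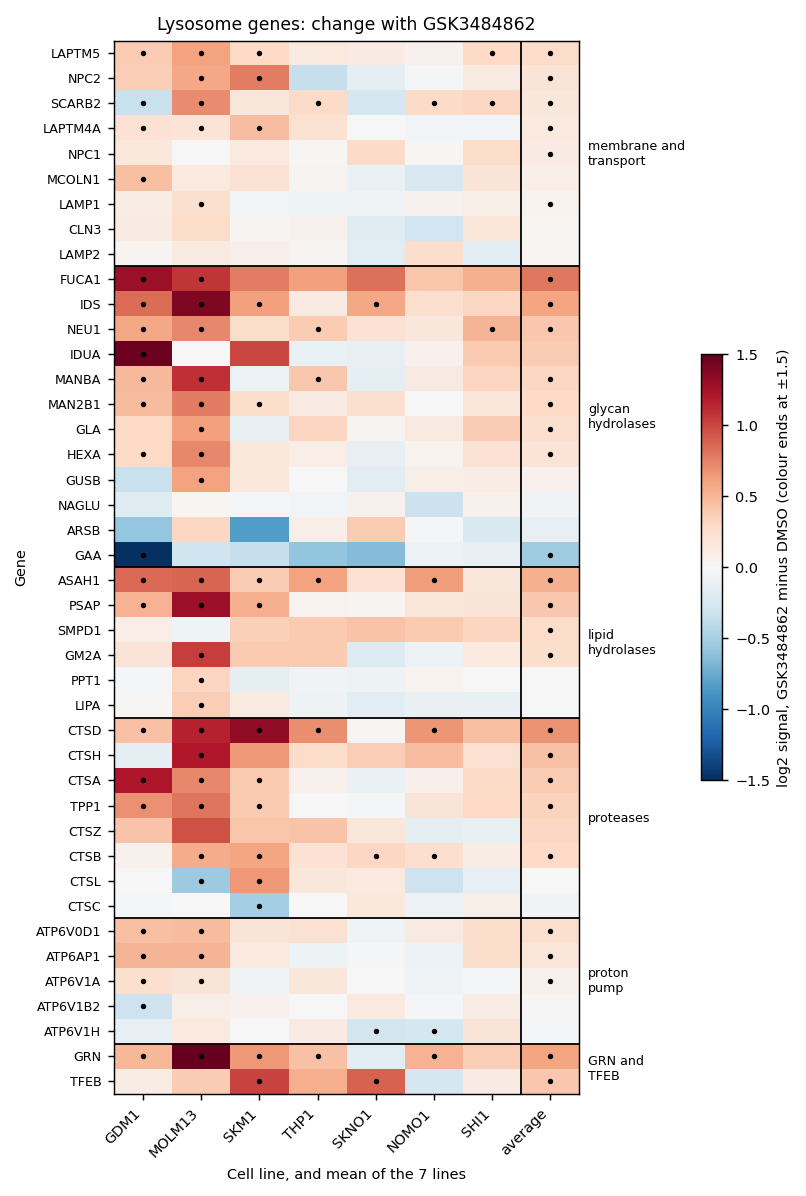
Change of the 42 lysosome genes (rows, grouped by role) in each of the 7 lines and on average (columns), as log2 signal, GSK3484862 minus DMSO, with colours ending at 1.5 in either direction and dots where the adjusted p was under 0.05. The MOLM13 column holds 27 rises and 1 fall, the SHI1 column 3 rises.

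Of 9 genes for membrane proteins and carriers, 6 rose on average and 0 fell, beside 23.2% and 28.6% of all genes. The median change of the 9 was 0.13. LAPTM5, a membrane protein of blood cell lysosomes, rose by 0.27 ± 0.02 (SE) and was above 0 in all lines. NPC2, which hands cholesterol to NPC1 inside the lysosome, rose by 0.19 ± 0.06, NPC1 by 0.13 ± 0.04, LAPTM4A by 0.15 ± 0.03 and SCARB2, the receptor that carries glucocerebrosidase to lysosomes, by 0.17 ± 0.03. The NPC2 call ended without GDM1, MOLM13 or SKM1, and the NPC1 call without SKNO1 or SHI1. LAPTM4A was at 0.10 without SKM1, and SCARB2 at 0.08 without MOLM13. LAMP1, a main glycoprotein of the lysosomal membrane, rose by 0.05 ± 0.02 (adjusted p = 0.0427). This call ended without GDM1, MOLM13, NOMO1 or SHI1 (0.02 without MOLM13) and after the removal of many single arrays.

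LAMP1 had 14.79 and 14.78 in treated MOLM13 cells, against 14.55 and 14.53 in DMSO cells, the only line in which it rose (0.24 ± 0.05). In the other lines its 12 treated arrays and 12 DMSO arrays differed by at most 0.11 on average within a line. LAMP2, the other abundant membrane glycoprotein and a receptor of chaperone-mediated autophagy, was at 0.03 ± 0.05 on average (adjusted p = 0.588) and passed in no line. Its treated arrays lay at 12.20 to 13.73 and its DMSO arrays at 12.26 to 13.72. The brightest LAMP2 probe set differed in this from its other 3 probe sets, which rose by 0.13, 0.15 and 0.21. The calcium channel gene MCOLN1 (0.10 ± 0.04, adjusted p = 0.0550) passed without THP1, SKNO1 or NOMO1, and CLN3, mutated in a childhood neuronal storage disease, was at 0.03 ± 0.05.

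Among 12 glycan hydrolase genes 7 rose on average, 1 fell and 4 did not pass, beside 23.2% up and 28.6% down over all genes. The median average change of the 12 was 0.27. FUCA1, the alpha-fucosidase of glycoprotein breakdown, had the largest average rise (0.79 ± 0.13, adjusted p = 1.03e-04). Its signals were 10.16 and 10.25 in treated GDM1 cells, against 8.81 and 9.01 in DMSO cells. In MOLM13 they were 11.68 and 11.69 in treated cells, against 10.71 and 10.51 in DMSO cells. Both treated arrays stood above both DMSO arrays there, and FUCA1 rose in these 2 lines. The MOLM13 call ended whichever array of the line was left out, and the GDM1 call without the first DMSO array. In SKM1 the groups overlapped, with 12.89 and 11.58 in treated cells, against 11.85 and 11.07 in DMSO cells.

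IDS, the iduronate sulfatase that acts on heparan and dermatan sulfate, rose by 0.59 ± 0.04 on average (adjusted p = 2.09e-08). It had 10.32 and 10.27 in treated MOLM13 cells, against 8.92 and 8.87 in DMSO cells. In GDM1 it had 12.99 and 12.68 in treated cells, against 11.92 and 12.06 in DMSO cells. It rose in these lines by 1.40 ± 0.12 and 0.84 ± 0.12, and also in SKM1 (0.62 ± 0.12) and SKNO1 (0.58 ± 0.12). The SKNO1 call ended without the first DMSO array. All 6 IDS probe sets had an average change above 0. NEU1, the lysosomal sialidase, rose by 0.41 ± 0.04 on average and in 4 lines, GDM1, MOLM13, THP1 and SHI1. The THP1 and SHI1 calls ended after the removal of single arrays of those lines. In SHI1 the NEU1 signal was 10.98 and 11.08 in treated cells, against 10.55 and 10.49 in DMSO cells, and this 0.51 ± 0.10 was the largest rise of a lysosome gene in that line.

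GAA, the acid alpha-glucosidase that digests glycogen, was the only lysosome gene that fell on average (-0.54 ± 0.09, adjusted p = 7.66e-05). Its signals were 3.65 and 3.63 in treated GDM1 cells, against 4.82 and 5.78 in DMSO cells. GDM1 was the only line in which GAA fell (-1.66 ± 0.23), and it also had the lowest GAA signal of all lines before treatment. These GDM1 signals were low, on a scale with its floor at 2.13, which limits how well the size of the fall is known. In THP1 GAA had 8.66 and 8.79 in treated cells, against 9.51 and 9.12 in DMSO cells, and in SKNO1 7.72 and 7.72 in treated cells, against 8.32 and 8.42 in DMSO cells. The treated arrays lay below the DMSO arrays in both lines, though neither passed. Treated and DMSO arrays overlapped in NOMO1 and SHI1. Without GDM1 the average was -0.35 and still passed.

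The mannosidase genes rose together on average, MANBA by 0.31 ± 0.04 and MAN2B1 by 0.30 ± 0.03. The alpha-galactosidase gene GLA rose by 0.24 ± 0.04 and HEXA, a hexosaminidase subunit gene, by 0.21 ± 0.04. Without MOLM13, MANBA was at 0.18 and HEXA at 0.12 (adjusted p = 0.0600). IDUA, the alpha-iduronidase that works beside IDS, was at 0.39 ± 0.16 (adjusted p = 0.0550) and lay within 0.5 of the floor on 21 of 28 arrays. The IDUA signal was 7.21 and 7.59 in treated GDM1 cells, against 6.38 and 5.48 in DMSO cells, a rise of 1.47 ± 0.43 that ended without either of 2 single arrays. The 2 treated SKM1 arrays disagreed for IDUA (4.65 and 2.45, against 2.59 and 2.52 in DMSO cells), and its average passed without SKM1 (0.28) or SKNO1 (0.47). GUSB, NAGLU and ARSB did not pass on average, though GUSB did without the second SKM1 DMSO array (0.10).

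Of 6 genes for lipid breakdown 4 rose on average and 0 fell, beside 23.2% and 28.6% of all genes. ASAH1, the acid ceramidase, rose by 0.53 ± 0.03 (adjusted p = 1.14e-09) and rose in 5 lines. Its signal was 13.79 and 13.85 in treated GDM1 cells, against 12.92 and 13.03 in DMSO cells. In MOLM13 it was 13.53 and 13.45 in treated cells, against 12.61 and 12.62 in DMSO cells. In NOMO1 it was 12.98 and 12.96 in treated cells, against 12.38 and 12.30 in DMSO cells. The ceramidase gene was higher on both treated arrays than on both DMSO arrays in every line, including SKNO1 (12.25 and 12.23, against 12.02 and 11.99) and SHI1 (12.19 and 12.23, against 11.97 and 12.12), where it did not pass.

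PSAP, the precursor of the saposins that lift lipids to their hydrolases, rose by 0.40 ± 0.04. It had 12.73 and 12.82 in treated MOLM13 cells, against 11.48 and 11.50 in DMSO cells. Without MOLM13 the PSAP average was 0.25. The ganglioside activator gene GM2A rose by 0.27 ± 0.06 but was at 0.14 without MOLM13 (adjusted p = 0.0963). SMPD1, the acid sphingomyelinase, rose by 0.27 ± 0.07 on average and passed in no single line. LIPA, the acid lipase, and PPT1, a palmitoyl thioesterase, were both at 0.01 on average and rose in MOLM13 (0.37 ± 0.11 and 0.33 ± 0.06). The LIPA call ended without the first DMSO array or either treated array.

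Of 8 protease genes 5 rose on average and 0 fell, beside 23.2% and 28.6% of all genes. The median change of the 8 was 0.32. CTSD, the aspartic protease cathepsin D, rose by 0.68 ± 0.06 (adjusted p = 7.76e-08) and rose in 5 lines. In SKM1 CTSD had 9.81 and 9.69 in treated cells, against 8.57 and 8.26 in DMSO cells. In MOLM13 it had 9.57 and 9.39 in treated cells, against 8.30 and 8.34 in DMSO cells. The treated arrays stood more than 1 log2 unit above the DMSO arrays in both. The rises were smaller in THP1 (0.70 ± 0.15), NOMO1 (0.66 ± 0.15) and GDM1 (0.44 ± 0.15), and each of these 3 calls ended without 1 of its arrays. In SKNO1 the groups overlapped, with 8.53 and 8.66 in treated cells, against 8.39 and 8.76 in DMSO cells.

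CTSA, the protective protein that binds NEU1 in the lysosome, rose by 0.38 ± 0.04 on average, or by 0.24 without GDM1. Its signal was 12.40 and 12.44 in treated GDM1 cells, against 11.16 and 11.25 in DMSO cells. The GDM1 rise of 1.21 ± 0.10 was the largest CTSA change of any line. The aminopeptidase cathepsin gene CTSH rose by 0.44 ± 0.10, the tripeptidyl peptidase gene TPP1 by 0.34 ± 0.03 and the cysteine protease gene CTSB by 0.30 ± 0.03. CTSC, which activates granule serine proteases of myeloid cells, was at -0.05 ± 0.03 on average and fell in SKM1 (-0.51 ± 0.07). Its average passed without SKNO1 (-0.09) or SHI1 (-0.08). Of its other 3 probe sets 2 fell on average (-0.15 and -0.20) and 1 was at 0.01.

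CTSL, a broad cysteine protease, went both ways. It had 8.60 and 8.63 in treated SKM1 cells, against 7.76 and 8.16 in DMSO cells, and rose there by 0.66 ± 0.12. In MOLM13 it had 9.56 and 9.65 in treated cells, against 10.27 and 10.03 in DMSO cells, and fell there (-0.54 ± 0.12). The average was near 0 (adjusted p = 0.984), and without SKM1 it was -0.11 and passed. CTSZ had the widest gap between duplicates of any lysosome gene, 5.04 and 7.85 in treated GDM1 cells, against 6.73 and 5.30 in DMSO cells. Its average of 0.31 ± 0.25 did not pass, though it did without the first of those treated arrays (0.51, adjusted p = 0.0292).

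Of the 5 proton pump genes 3 rose on average and 0 fell, beside 23.2% and 28.6% of all genes. The 3 were ATP6V0D1 (0.24 ± 0.03), the accessory subunit gene ATP6AP1 (0.18 ± 0.03) and the catalytic subunit gene ATP6V1A (0.07 ± 0.02). The ATP6V1A call ended without GDM1, MOLM13 or THP1. ATP6V1B2 and ATP6V1H were at 0.01 ± 0.03 and -0.03 ± 0.03. ATP6V1B2 fell in GDM1 (-0.31 ± 0.09), while ATP6V1H fell in SKNO1 and NOMO1 (-0.28 ± 0.08 and -0.26 ± 0.08). The ATP6V1B2 call ended without either DMSO array or the first treated array, and without that treated array its change was -0.18. Both ATP6V1H calls ended whichever array of the line was left out. The 2 ATP6V1H probe sets had average changes of opposite sign.

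GRN encodes progranulin, a secreted protein that also reaches the lysosome, partly with prosaposin, and is cut there into granulins. It rose by 0.59 ± 0.04 on average (adjusted p = 7.58e-09), and its 3 probe sets gave 0.59, 0.59 and 0.60. Its signal was 13.02 and 13.08 in treated MOLM13 cells, against 11.15 and 11.29 in DMSO cells. In SKM1 it was 12.54 and 12.38 in treated cells, against 11.74 and 11.88 in DMSO cells. In NOMO1 it was 12.48 and 12.75 in treated cells, against 11.95 and 12.24 in DMSO cells. These rises were 1.83 ± 0.11, 0.65 ± 0.11 and 0.52 ± 0.11, and GRN also rose in GDM1 (0.50 ± 0.11) and THP1 (0.44 ± 0.11). The NOMO1 call ended without the second treated array, and the THP1 call without the first DMSO array or either treated array. In SKNO1 both treated arrays lay below both DMSO arrays (10.36 and 10.44, against 10.56 and 10.57), a change of -0.17 ± 0.11 that did not pass. Without MOLM13 the average was 0.38.

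TFEB, the transcription factor that binds the shared lysosomal promoter element, rose by 0.40 ± 0.09 on average (adjusted p = 8.78e-04), and its second probe set gave 0.37. Its signal was 9.63 and 9.66 in treated SKM1 cells, against 8.66 and 8.60 in DMSO cells. In SKNO1 it was 3.87 and 4.60 in treated cells, against 3.12 and 3.58 in DMSO cells. TFEB rose in these 2 lines, by 1.02 ± 0.23 and 0.88 ± 0.23, and the SKNO1 call ended without either of 2 single arrays. For TFEB the SKNO1 signal was low, on a scale with its floor at 2.13, which limits how well the size of that rise is known. In THP1 it was 10.03 and 10.02 in treated cells, against 9.47 and 9.48 in DMSO cells, and in MOLM13 9.23 and 9.27, against 8.79 and 8.94. Treated arrays lay above DMSO arrays in both lines, though neither change passed (0.55 ± 0.23 and 0.38 ± 0.23). In NOMO1 the order was turned, with 8.50 and 8.74 in treated cells, against 8.96 and 8.79 in DMSO cells. GDM1 and SHI1 overlapped.

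**Figure D2:**
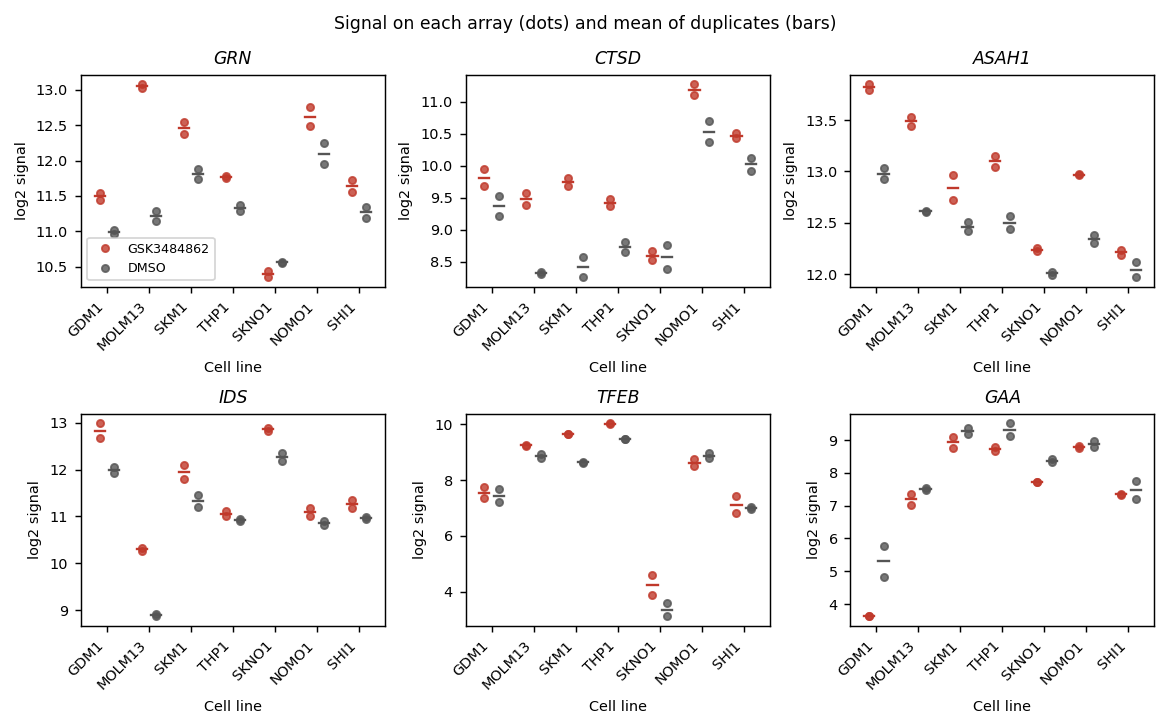
Log2 signal on every array for GRN, CTSD, ASAH1, IDS, TFEB and GAA, with the 2 treated arrays (red) left of the 2 DMSO arrays (grey) in each of the 7 lines. GRN in MOLM13 reaches 13.02 and 13.08 in treated cells, against 11.15 and 11.29 in DMSO cells, and GAA in GDM1 lies at 3.65 and 3.63 in treated cells, against 4.82 and 5.78 in DMSO cells.

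Promoters are shown because the E-box element is known to be shared by many lysosome genes. Of the 42 measured genes 32 had a RefSeq promoter window (GRCh38.p14, 250 bases before to 50 after the start). CACGTG, searched on both strands and the same on each, was in 8 of 32 windows (25.0%), beside 7.43% of all 27305 windows. The longer TCACGTGA, also the same on both strands and always holding CACGTG, was in 6 of 32 (18.8%), beside 1.04% of all windows. The 4 windows shown are cut at 20 bases after the start, run 5′ to 3′ on the gene's strand, and have CACGTG in capitals. These 4 of the 8 windows with CACGTG were picked by hand. LAMP1 (chr13:113296989-113297258, plus strand) held the core 6 times and CTSD (chr11:1763908-1764177, minus strand) 1 time. CTSA (chr20:45891085-45891354, plus strand) and GAA (chr17:80101331-80101600, plus strand) each held it 2 times. The number of cores was not tested against the changes.
LAMP1: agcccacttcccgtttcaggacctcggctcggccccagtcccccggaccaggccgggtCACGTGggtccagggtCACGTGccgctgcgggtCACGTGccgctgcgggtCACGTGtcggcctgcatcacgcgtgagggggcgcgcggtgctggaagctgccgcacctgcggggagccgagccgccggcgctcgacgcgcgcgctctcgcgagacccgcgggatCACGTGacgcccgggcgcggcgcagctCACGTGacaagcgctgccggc
CTSA: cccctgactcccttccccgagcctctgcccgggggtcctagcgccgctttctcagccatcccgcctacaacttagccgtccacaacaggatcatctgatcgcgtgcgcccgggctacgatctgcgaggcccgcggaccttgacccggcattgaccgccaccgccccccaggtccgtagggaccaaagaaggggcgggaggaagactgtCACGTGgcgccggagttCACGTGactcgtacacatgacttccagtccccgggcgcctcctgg
CTSD: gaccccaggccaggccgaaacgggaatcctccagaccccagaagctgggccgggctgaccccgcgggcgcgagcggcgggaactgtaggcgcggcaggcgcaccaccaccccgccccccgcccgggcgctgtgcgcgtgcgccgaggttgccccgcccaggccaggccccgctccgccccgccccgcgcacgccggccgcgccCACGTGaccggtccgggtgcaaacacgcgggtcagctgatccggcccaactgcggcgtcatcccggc
GAA: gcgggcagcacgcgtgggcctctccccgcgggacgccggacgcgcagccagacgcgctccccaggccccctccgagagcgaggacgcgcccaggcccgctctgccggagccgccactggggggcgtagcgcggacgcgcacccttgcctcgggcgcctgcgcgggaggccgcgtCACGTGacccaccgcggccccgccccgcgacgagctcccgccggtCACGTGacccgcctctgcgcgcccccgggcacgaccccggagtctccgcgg

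CACGTG was in 5 of 21 windows of genes that rose on average, namely ATP6V0D1, CTSA, CTSD, LAMP1 and NEU1. It was in 3 of 11 windows of the genes that did not rise, namely CLN3, GAA and MCOLN1. The median number of CG dinucleotides per window was 28.5 for the lysosome genes and 14 for all windows. It was 26.0 in those that rose and 31.0 in those that did not. These are descriptions of letters in a fixed window, with no test.

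In single lines the counts differed widely. MOLM13 had 27 lysosome genes up and 1 down, beside 13.7% and 15.4% of all genes. GDM1 had 19 up and 3 down, beside 13.3% and 20.5% of all genes. SKM1 had 14 up and 1 down, beside 14.1% and 14%. In these 3 lines the rises among lysosome genes were 64.3%, 45.2% and 33.3% of 42. The median changes were 0.53 in MOLM13, 0.23 in GDM1 and 0.24 in SKM1, while the median over all genes lay within 0.02 of 0 in each.

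The other lines had few calls among all genes too. THP1 had 6 lysosome genes up and 0 down, beside 5.40% and 8.30% of all genes. The 6 were SCARB2, MANBA, NEU1, ASAH1, CTSD and GRN, and 19 of 42 had an unadjusted p under 0.05, beside 31% of all genes, when THP1 was fitted on its own 4 arrays, where 0 passed after adjustment. NOMO1 had 5 up and 1 down, beside 4.21% and 7.55% of all genes, the rises being SCARB2, ASAH1, CTSB, CTSD and GRN. SKNO1 had 3 up (IDS, CTSB and TFEB) and 1 down (ATP6V1H), beside 2.96% and 3.12% of all genes. SHI1 had 3 up (LAPTM5, SCARB2 and NEU1) and 0 down, beside 2.52% and 0.899% of all genes. Medians were 0.13 in THP1, 0.06 in NOMO1, 0.19 in SHI1 and near 0 in SKNO1, where 21 of 42 changes were above 0 and 21 below.

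**Figure D3:**
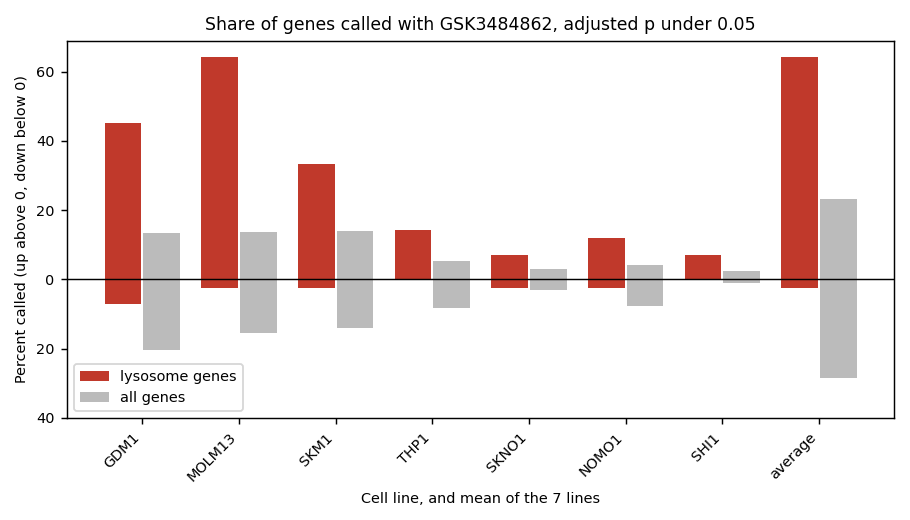
Percent of genes called up or down in each line and on average, for the 42 lysosome genes (red) and all 11676 genes (grey). The lysosome share of rises is 64.3% in MOLM13 beside 13.7% of all genes, and 7.14% in SKNO1 beside 2.96%.

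Over the 7 lines there were 77 rises and 7 falls among 294 gene-by-line values. In all, 31 lysosome genes rose in at least 1 line, 6 fell in at least 1, and 7 passed in none, namely LAMP2, NPC1, CLN3, NAGLU, ARSB, SMPD1 and CTSZ. Matching shares of all genes over the lines are not given here, so these totals are descriptions only. ASAH1, CTSD and GRN rose in 5 lines each. SCARB2 and CTSL moved in both directions. SCARB2 had 10.65 and 10.65 in treated MOLM13 cells, against 10.08 and 9.80 in DMSO cells, and 11.54 and 11.52 in treated GDM1 cells, against 11.87 and 11.85 in DMSO cells. It rose in MOLM13, THP1, NOMO1 and SHI1 and fell in GDM1, with no overlap of the 2 groups in any of the 5 lines. Of the 84 single-line calls, 31 ended when 1 array of that line was left out. They were 7 of 22 in GDM1, 5 of 28 in MOLM13, 2 of 15 in SKM1, 5 of 6 in THP1, 4 of 4 in SKNO1, 5 of 6 in NOMO1 and 3 of 3 in SHI1. The share of all genes called in either direction was 33.7% in GDM1, 29.1% in MOLM13, 28.1% in SKM1, 13.7% in THP1, 6.08% in SKNO1, 11.8% in NOMO1 and 3.42% in SHI1.

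The arrays were also read directly, without a test. In MOLM13 both treated arrays lay above both DMSO arrays in 35 of 42 lysosome genes, beside 30.0% of all genes, and below in 2, beside 34.8%. In SHI1 they lay above in 29, beside 29.1% of all genes, and below in 5, beside 23.9%, although only 3 changes passed there. In GDM1 they lay above in 25 and below in 8, beside 28.2% and 35.5% of all genes. THP1 had 24 above and 6 below, beside 26.2% and 34.6%. The duplicates overlapped more often in SKM1, with 18 above and 5 below, beside 25.5% and 27.2%. NOMO1 had 18 above and 10 below, beside 21.1% and 32.5%, and SKNO1 had 13 above and 13 below, beside 19.3% and 29.1%.

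Whether the change differed between lines was tested directly. By the moderated F-test 30 of 42 lysosome genes passed, beside 37.5% of all genes. The smallest adjusted p belonged to GRN (2.41e-06), followed by CTSA (2.01e-05) and the beta-mannosidase gene MANBA (2.89e-05). MANBA had 10.03 and 9.89 in treated MOLM13 cells, against 8.77 and 8.96 in DMSO cells. In SKM1 it had 10.18 and 9.96 in treated cells, against 10.14 and 10.18 in DMSO cells. The MOLM13 groups were far apart and the SKM1 groups overlapped. FUCA1, with the largest average, did not pass this test (adjusted p = 0.668).

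MOLM13 stood apart among the lines. Its change was above the mean change of the other 6 lines in 21 lysosome genes and below it in 1, beside 7.24% and 4.11% of all genes. GRN exceeded the other lines by 1.44 ± 0.11 (adjusted p = 1.61e-07), PSAP by 1.03 ± 0.11, IDS by 0.95 ± 0.13, MANBA by 0.91 ± 0.10 and GM2A by 0.90 ± 0.16. The gene below was CTSL (-0.63 ± 0.12, adjusted p = 0.00268). Before treatment MOLM13 had the lowest signal of the 7 lines in 12 of the 42 genes and the highest in 0, while 11.8% and 11.7% of all genes were lowest and highest there. After treatment it had the lowest in 9 and the highest in 8. The shares of all genes after treatment are not given here, so this shift cannot be read as particular to lysosome genes.

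SKNO1 went the other way, with 11 lysosome genes below the mean change of the other lines, beside 3.99% of all genes, and 0 above, beside 3.49%. GRN lay 0.88 below (-0.88 ± 0.11, adjusted p = 1.64e-04) and CTSD was at -0.77 ± 0.16. With arrays centred on their medians the SKNO1 counts were 6 below and 1 above. Shares of all genes with centred arrays are not given here. GDM1 had 6 genes above, beside 8.88% of all genes, led by CTSA at 0.97 ± 0.10. It had 5 below, beside 14.2%, led by GAA at -1.31 ± 0.25 (adjusted p = 9.79e-04). SKM1 had 5 above and 3 below, beside 7.25% and 4.83%, with CTSL at 0.77 ± 0.12, CTSD at 0.76 ± 0.16 and CTSC at -0.53 ± 0.08.

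In THP1 3 genes lay below the mean change of the other lines (IDS, PSAP and TPP1), in NOMO1 2 (MAN2B1 and ATP6AP1) and in SHI1 1 (ASAH1), and none of the 42 lay above in any of these lines. The shares of all genes below were 2.30%, 3.52% and 1.69%, and those above 1.42%, 2.34% and 2.64%. The NOMO1 count was 0 under quantile normalization and with arrays centred, settings for which shares of all genes are not given here. These line-against-rest contrasts were added after the data had been seen.

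The lines entered treatment with different lysosome profiles. All 42 genes differed in DMSO level between lines by the F-test, but so did 97.0% of all genes. NOMO1 had the highest DMSO signal in 11 of the 42 genes and the lowest in 0, while 14.7% and 15.0% of all genes were highest and lowest there. SKNO1 was highest in 12 and lowest in 13, while 17.1% and 16.5% of all genes were highest and lowest there.

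CTSL had the widest range of DMSO means, 7.14 log2 units. Its DMSO signal was 11.74 and 11.68 in THP1, 10.27 and 10.03 in MOLM13, 9.75 and 9.79 in SHI1 and 9.22 and 9.02 in NOMO1. It was 7.76 and 8.16 in SKM1, 7.15 and 7.37 in SKNO1 and 4.57 on both arrays in GDM1. Neighbouring lines in this order did not overlap. In GDM1 all 4 arrays gave 4.57, equal within 0.001, which leaves no measured change there.

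TFEB had the next widest range, 6.13. Its DMSO signal was 9.47 and 9.48 in THP1, then 8.96 and 8.79 in NOMO1, 8.79 and 8.94 in MOLM13 and 8.66 and 8.60 in SKM1, of which NOMO1 and MOLM13 overlapped. It was 7.20 and 7.67 in GDM1, 7.05 and 6.95 in SHI1 and 3.12 and 3.58 in SKNO1. SKNO1 stood far below every other line for this factor. Whether its level bears on the other lysosome genes was not tested. For CTSZ the range was 4.70, from GDM1 at 6.73 and 5.30 to SKM1 at 10.30 and 11.13, and the duplicates of most lines overlapped with those of their neighbours.

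**Figure D4:**
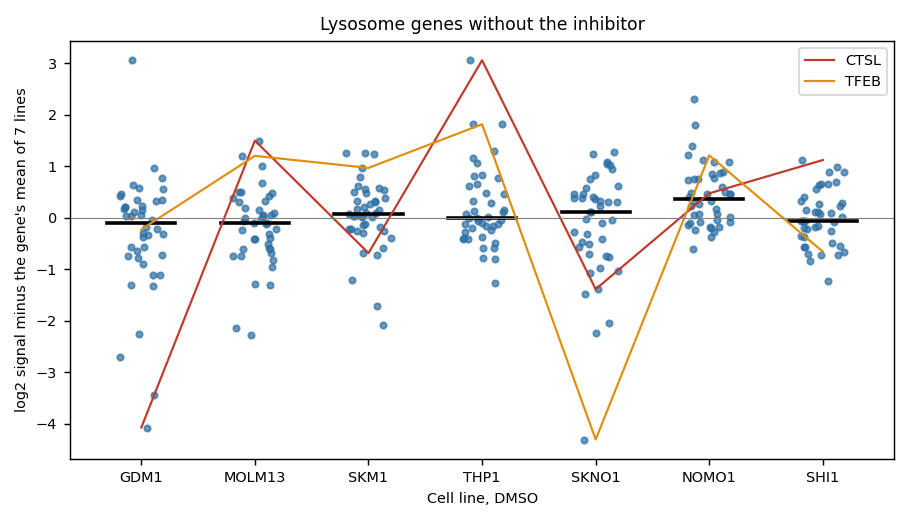
DMSO level of each lysosome gene in each line, as log2 signal minus the gene's mean over the 7 lines, with 1 point per gene, a black bar at the median and lines joining CTSL and TFEB. CTSL is lowest in GDM1 and highest in THP1, TFEB is lowest in SKNO1, and the NOMO1 median is highest at 0.37.

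Another 73 lysosome genes with a probe set, of 86 listed, were read in the same fit. On average 32 rose and 6 fell, beside 23.2% and 28.6% of all genes, and the median change of the 73 was 0.09. The largest were GALC, the galactosylceramidase (0.93 ± 0.09), CTSK, a collagen-cutting cathepsin (0.76 ± 0.11), and TCIRG1, a proton pump membrane subunit (0.64 ± 0.05). They were followed by the phospholipase gene PLA2G15 (0.58 ± 0.06), SCPEP1 (0.47 ± 0.07) and the cathepsin gene CTSS (0.45 ± 0.03). GALC rose by 3.16 ± 0.24 in GDM1, without which its average was 0.56, and TCIRG1 by 1.80 ± 0.13, also in GDM1. The 6 that fell were NAGPA, AP1S1, GGA2, FUCA2, ATP6V0A2 and SLC38A9. The NAGPA and AP1S1 calls were kept whichever line was left out, while each of the other 4 ended without at least 1 line. By line this list had 30 rises and 2 falls in MOLM13, beside 13.7% and 15.4% of all genes. It had 29 and 8 in GDM1, beside 13.3% and 20.5%, and 21 and 9 in SKM1, beside 14.1% and 14%. In THP1 it had 6 and 3, beside 5.40% and 8.30%, in NOMO1 3 and 3, beside 4.21% and 7.55%, and in SHI1 6 and 0, beside 2.52% and 0.899%. SKNO1 had more falls than rises on this list, with 2 up and 6 down, beside 2.96% and 3.12% of all genes.

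Monocyte and macrophage markers moved in the same direction as the lysosome genes. The median change of the 23 measured markers, of 30 listed, was 0.78. On average 20 rose and 0 fell, beside 23.2% and 28.6% of all genes. They included S100A8 (2.05 ± 0.15), which passed only in GDM1 (8.24) and MOLM13 (5.75) and was at 1.01 without GDM1. CD14 rose by 1.34 ± 0.16, with 4.36 in SKM1, and was at 0.83 without that line. LYZ and VCAN did not pass (0.19 ± 0.11 and 0.14 ± 0.10). Marker rises numbered 14 of 23 in SKM1, 8 in MOLM13 and 6 in GDM1, beside 14.1%, 13.7% and 13.3% of all genes. There were 3 each in THP1, SKNO1 and NOMO1, beside 5.40%, 2.96% and 4.21%. SHI1 had 1 (4.35%), beside 2.52% of all genes. The median marker change was 1.15 in SKM1, 0.61 in MOLM13 and 0.14 in GDM1, where the lysosome medians were 0.24, 0.53 and 0.23. It was 0.52 in THP1, 0.37 in SHI1, 0.31 in SKNO1 and 0.15 in NOMO1, where the lysosome medians were 0.13, 0.19, near 0 and 0.06. The summed linear signal of the markers ran from 16164 to 255176 over lines in treated cells, against 12199.7 to 215532 in DMSO cells. The macrophage receptor gene MRC1 lay within 0.5 of the floor on 24 of 28 arrays, and CD14 on 13. Of 10 measured genes of myeloid identity 6 rose on average and 2 fell, FLT3 (-0.87 ± 0.09) and KIT (-0.49 ± 0.13). The part of these markers in the lysosome result was not tested.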

How the data were processed

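RNA from 7 AML cell lines on 28 Affymetrix Human Genome U133 Plus 2.0 arrays was compared after 96 hours of 1 µM GSK3484862 or 0.1% DMSO, and groups and replicate numbers were read from the titles. The authors deposited 1 table of log2 values for 27306 probe sets. The only tool named, per the submitters' processing notes, is limma, whose role and version are missing. For background correction, summarisation, normalization and any probe set filter, the method was not given in the sources used here. From the array medians and the shared floor the values were taken as normalized and used as they stood. The steps above could compress low signals and shift all genes of an array together. Scan dates were not used here, so no batch was tested.

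Of the probe sets 22580 had 1 gene symbol in the platform annotation, 1098 several and 3628 none, and only the first kind was used, with the probe set of highest mean over all arrays for each of 11676 genes. Of the 22580, 22567 matched the RefSeq gene table by identifier and 0 symbols changed. limma 3.58.1 in R 4.3.3 (lmFit, eBayes) fitted 14 groups, line by treatment, with 14 residual and 2.28 prior degrees of freedom. Contrasts were the change in each line, its mean over the lines, F-tests of the change and of the DMSO level between lines, and the change of 1 line minus the mean change of the rest. P-values were two-sided and Benjamini-Hochberg adjusted over all genes, with calls at 0.05. Errors rest on 2 arrays a group. The p-value of the average concerns these 7 lines, and the test with lines as units takes its error from the spread between them.

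The lysosome genes, marker lists and tests were chosen with earlier results of these data known. Values per array were given for called genes with 1 sign in all lines and the 6 largest average changes, the 2 largest called changes in each line, the 3 smallest F-test p-values, the 3 widest DMSO ranges, and always TFEB, LAMP1, LAMP2, CTSD and GRN. PSAP was added for its difference between lines after its values were seen. Alternatives were quantile normalization, centring, a filter on dim genes, the mean of all probe sets, no probe sets marked _s_at or _x_at, trend and robust options, a replicate block, single lines on their own arrays, lines as units, arrays, replicates or lines left out, and calls at 0.01. The fit was tested on simulated data. Promoter windows and gene positions came from RefSeq (GRCh38.p14).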

Additional observations from a re-analysis of the deposited data

Results flagged for a closer look

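Of 42 lysosome genes 30 changed to a different degree in different lines, and of those described array by array 13 did so. The ground was the moderated F-test over all genes. The adjusted p was 2.41e-06 for GRN, 2.01e-05 for CTSA, 2.89e-05 for MANBA, 2.95e-05 for SCARB2 and 3.33e-05 for PSAP. It was 2.27e-04 for IDS, 3.81e-04 for ASAH1, 6.50e-04 for CTSL and 0.00193 for CTSD. These 9 passed in every refit that left out 1 line or 1 array. It was 0.0129 for GAA, 0.0232 for LAMP1, 0.0370 for TFEB and 0.0387 for NEU1. The GAA result did not pass without GDM1 (adjusted p = 0.293) and the LAMP1 result not without MOLM13 (adjusted p = 0.256), while those of TFEB and NEU1 ended after the removal of several lines or single arrays. TFEB without SKM1 was at an adjusted p of 0.124 and without NOMO1 at 0.139. With 2 arrays a group no single array was tested as an outlier.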

How the results depend on the processing

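Of 42 lysosome genes 28 were called on average, 22 in GDM1, 28 in MOLM13, 15 in SKM1, 6 in THP1, 4 in SKNO1, 6 in NOMO1 and 3 in SHI1. Quantile normalization, the mean of all probe sets and the filter on dim genes (40 genes kept) left these counts within 1.5 times. Among the genes described array by array, no call turned into a call of the opposite direction under any setting. Averages near 0 that did not pass are not covered by this. With lines as units 4 were called on average. Without probe sets marked _s_at or _x_at, which left 28 lysosome genes, calls were 14 in GDM1, 2 in SKNO1 and 27 by the F-test of DMSO levels. Centred arrays gave 1 in SHI1, and trend and robust options 6. At an adjusted p under 0.01 calls were 3 in THP1, 1 in SKNO1, 3 in NOMO1 and 1 in SHI1. Where no share of all genes stands beside a count in this section, a drop cannot be read as particular to lysosome genes. Each line fitted on its own 4 arrays gave 14 in GDM1 and 25 in MOLM13 but 0 in SKM1, THP1, SKNO1, NOMO1 and SHI1. The genes at an unadjusted p under 0.05 there numbered 11, 19, 12, 7 and 25, in that order of lines, beside 22%, 31%, 19.8%, 21.6% and 22.7% of all genes. The replicate number as a block gave 29 on average and 24 in GDM1, and changed no other count by over 1.5 times. Same-numbered arrays of a line deviated together at r = -0.10 to 0.39, over 0.1 in 3 of 7 lines (SKM1, SKNO1 and NOMO1). The labels do not say what the number marks, though the titles' running numbers put every replicate 1 before every replicate 2. A shared run was tested by the replicate block alone. That block holds 1 shift common to all lines and cannot take up a shift of a single line. Pairing of arrays within a line was therefore not tested, and calls and overlaps in SKM1, SKNO1 and NOMO1 are unpaired readings. With 1 replicate of every group left out, limma called 0 of all genes, the lysosome genes included. At an unadjusted p under 0.05 were 14 lysosome genes without replicate 1 (25.3% of all genes) and 20 without replicate 2 (27.2%). Leaving out single arrays gave 27 to 29 on average, 17 to 20 in GDM1, 23 to 25 in MOLM13, 13 to 22 in SKM1, 2 to 4 in THP1 and NOMO1, 0 to 2 in SKNO1 and SHI1, 25 to 33 by the F-test of the change and 42 by that of DMSO levels. LAMP1 lost its average call with centred arrays or averaged probe sets (LAMP2 passed at 0.13 with these), and SCARB2 its SHI1 call with centred arrays. The causes of these shifts were not tested. Signals near the floor limit what could be seen for IDUA, and equal values on all arrays leave no change to see for CTSL in GDM1. Low signals also limit the TFEB rise in SKNO1 and the GAA fall in GDM1.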

Other observations

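TFE3 and MITF, the close relatives of TFEB that bind the same element, were looked at after their values were seen. TFE3 rose by 0.39 ± 0.04 on average and in 4 lines, SKM1 (0.73 ± 0.11), MOLM13 (0.68 ± 0.11), GDM1 (0.60 ± 0.11) and SKNO1 (0.40 ± 0.11). MITF was at 0.03 ± 0.11 and passed in no line. Within the named lysosome set, no gene besides CTSL in GDM1 had 4 equal values within a line.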
